A study of Mus musculus with 6 samples.

Results

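The genes described here are Tsc22d3, a gene that glucocorticoid hormones switch on, and 7 genes linked to it by family or by the same hormone: Tsc22d1, Tsc22d4, Fkbp5, Sgk1, Nr3c1, Zbtb16 and Zbtb20. They were taken by symbol from the feature list of the count matrices, where each of the 8 symbols matched 1 feature. The genes were chosen on their Txnip-KO to WT differences per cell type in these same samples, so their own values are given as a description. The samples were 3 Txnip-KO and 3 WT bone marrow preparations from mice, enriched and sorted by flow cytometry and profiled cell by cell as transcript 3′ ends. The Txnip-KO group lacks Txnip, which encodes an arrestin-like protein that inhibits thioredoxin and restrains the uptake of glucose, and the WT group is labelled wildtype. The labels do not state strain, age, the sorted population, how the deletion was made or whether the 3 samples of a group are separate animals. The p-values below therefore measure the spread between these samples, which may be partly technical.

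Glucocorticoids cross the cell membrane and bind the glucocorticoid receptor, the product of Nr3c1, which waits in the cytoplasm in a complex with HSP90 chaperones and acts in the nucleus as a transcription factor once hormone is bound. Tsc22d3 encodes GILZ, a small leucine zipper protein of the TSC22 family that is induced by the receptor in lymphoid and myeloid cells and is known as a mediator of the hormone's anti-inflammatory action. Fkbp5 encodes a co-chaperone that lowers the receptor's affinity for hormone, and so forms a feedback loop. Tsc22d3 is also a known target of FoxO transcription factors, so its level does not read hormone action alone.

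The matrices held 48277 cell barcodes, of which 44399 passed limits on genes, unique molecular identifiers (UMIs, counted transcript copies) and mitochondrial share. After removal of 2886 predicted doublets, 41513 cells were kept, with a median of 6932 to 8187 UMIs per cell in the Txnip-KO samples and 8918 to 9176.5 UMIs in the WT samples. Any pair of samples shared 9 to 23 barcodes. Cells were assigned to marker gates by lists of cell type genes that hold none of the 8 genes; 16 gates had at least 20 cells in every sample and 6261 cells (15.1%) fell in no gate. Cells are named below after their gate, so that NK cells means cells in the NK gate. Txnip itself was measured at 10.0, 9.50 and 0.450 CPM in the Txnip-KO samples, against 311, 215 and 285 CPM in the WT samples over all kept cells, in the order of samples 1, 2 and 3 used throughout. It was lower in every Txnip-KO sample than in every WT sample, and Txnip-KO sample 3 was far below the other two Txnip-KO samples. It was called lower in 15 of 16 gates; in neutrophil-gated cells it was at 45.5, 33.8 and 0 CPM in the Txnip-KO samples, against 132, 267 and 328 CPM in the WT samples and was not called. CPM are UMI counts scaled to the usual counts-per-million unit with library sizes adjusted by the trimmed mean of M-values (TMM) within each comparison.

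The 5 genes matched in a RefSeq promoter table have 16 windows that run from 250 bases before to 50 bases after a transcript start on GRCm38.p6. Searched on both strands, the 15-base glucocorticoid response element spelled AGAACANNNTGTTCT occurred in 3 of 32851 windows of that table (0.00913%), and 1 of these was a window of Sgk1. Its half-site TGTTCT, which the longer element contains on both strands, occurred in 6 of the 16 windows and in 19.0% of all windows. The forkhead motif TGTTTAC, the FoxO core, occurred in none of the 16 windows and in 3.65% of all windows. A window of Tsc22d3 and windows of Fkbp5, Sgk1 and Zbtb20 are shown because Tsc22d3, Zbtb20 and Fkbp5 had the largest differences over all kept cells and Sgk1 is the member with the whole element. Capitals mark the half-site on either strand, and in Sgk1 also the whole element; a match is a run of letters and not a measured binding site.
Tsc22d3, chrX:140600473-140600772, minus strand: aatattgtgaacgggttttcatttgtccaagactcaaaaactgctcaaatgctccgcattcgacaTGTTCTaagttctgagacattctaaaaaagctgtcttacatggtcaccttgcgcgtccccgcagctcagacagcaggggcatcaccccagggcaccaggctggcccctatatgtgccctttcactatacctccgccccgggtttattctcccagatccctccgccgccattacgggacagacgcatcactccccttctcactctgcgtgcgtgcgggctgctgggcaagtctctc
Fkbp5, chr17:28486100-28486399, minus strand: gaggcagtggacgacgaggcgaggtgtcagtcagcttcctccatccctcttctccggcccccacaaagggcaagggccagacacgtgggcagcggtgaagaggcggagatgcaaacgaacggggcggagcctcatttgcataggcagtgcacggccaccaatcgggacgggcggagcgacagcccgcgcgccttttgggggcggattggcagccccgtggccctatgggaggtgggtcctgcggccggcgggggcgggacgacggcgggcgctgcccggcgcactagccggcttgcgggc
Sgk1, chr10:21993640-21993939, plus strand: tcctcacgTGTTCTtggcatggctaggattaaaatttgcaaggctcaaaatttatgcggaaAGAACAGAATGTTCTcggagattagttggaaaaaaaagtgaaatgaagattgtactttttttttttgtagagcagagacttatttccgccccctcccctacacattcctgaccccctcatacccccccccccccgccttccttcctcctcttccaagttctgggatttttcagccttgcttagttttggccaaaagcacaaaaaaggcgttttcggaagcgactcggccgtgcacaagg
Zbtb20, chr16:43247034-43247333, plus strand: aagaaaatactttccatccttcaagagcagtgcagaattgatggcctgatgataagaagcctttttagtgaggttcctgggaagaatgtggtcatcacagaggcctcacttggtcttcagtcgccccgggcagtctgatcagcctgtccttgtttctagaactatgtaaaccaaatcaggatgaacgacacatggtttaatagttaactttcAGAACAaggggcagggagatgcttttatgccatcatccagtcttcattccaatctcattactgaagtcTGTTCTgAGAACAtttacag
Of 3 Tsc22d3 windows, the one shown holds 1 half-site, 185 bases before the start, and the other two hold none; the 1 Fkbp5 window holds none. The Sgk1 window holds the only whole element among the 16 windows, starting 189 bases before the start; Sgk1 was called higher in Txnip-KO in 2 of 9 tested gates, as described with its values. In GRCm38 coordinates the genes span X:140539528-140600659 (Tsc22d3), 17:28399094-28517527 (Fkbp5), 10:21882184-21999903 (Sgk1), 16:42875881-43642602 (Zbtb20), 14:76414961-76507765 (Tsc22d1), 5:137745730-137768450 (Tsc22d4) and 9:48654297-48836222 (Zbtb16). In the annotation, 5 genes on the same strand and 4 on the opposite strand overlap Zbtb20. For Fkbp5 these numbers are 2 and 2.

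Over all kept cells, 5 of the 8 genes were higher in Txnip-KO and none was lower. Tsc22d3 had the largest log2 fold change of the 8, 1.53, followed by Zbtb20 (0.93), Fkbp5 (0.73), Zbtb16 (0.60) and Tsc22d4 (0.24), while that of the receptor gene Nr3c1 was 0.00 ± 0.06 (SE). A gene is called where its p-value from edgeR's quasi-likelihood test on counts summed per sample, adjusted by the Benjamini-Hochberg method over all genes tested, is under 0.05. The count of 5 stands beside 21.8% of all 14648 tested genes called higher; 41.1% were called in one direction or the other. At an unadjusted p under 0.05, 6 members were higher and 0 were lower, and DESeq2 called 5 higher and 0 lower. The members were picked with the same comparison of Txnip-KO and WT known, so their differences are a description and the calls say only where each gene falls in the fit over all genes.

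The number of members called differed by gate, as did the share of all genes called. In HSC-gated cells 6 of 8 tested members were called higher, where 12.5% of all tested genes were called higher and 14.3% lower. In lymphoid-primed progenitors 6 of 6 were called higher, beside 22.1% of all genes higher and 23.4% lower, and in granulocyte-monocyte progenitors 5 of 7, beside 20% and 22.1%. Erythroid-gated cells had 7 of 8 (all genes 14.8% higher and 15.9% lower) and megakaryocyte-gated cells 4 of 7 (13.9% and 14.9%). Only Nr3c1 was not called in the erythroid gate, but the calls of Tsc22d4, Tsc22d1, Zbtb16 and Sgk1 there were lost in 3 or more of the 6 fits that left out a sample, and DESeq2 called 5. In the lymphoid gates, 4 of 8 were called higher in NK cells (all genes 13.6% higher and 14.3% lower), 4 of 8 in innate lymphoid progenitors (4.24% and 3.72%), 1 of 6 in T cells (2.68% and 3.07%), 1 of 5 in B cells (1.37% and 1.0%) and 0 of 5 in ILC2 (0.742% and 0.758%). In the T cell and B cell gates the single call was Tsc22d3. Among myeloid gates, 5 of 7 were called higher in monocytes (7.26% and 8.65%), 4 of 7 in conventional dendritic cells (7.55% and 9.05%) and 4 of 6 in plasmacytoid dendritic cells (14.6% and 15.5%). Basophils had 2 of 8 (4.33% and 4.83%), mast cells 3 of 8 (3.90% and 4.15%) and neutrophils 0 of 3 (0.288% and 0.0575%). The neutrophil gate rested on 275, 21 and 122 Txnip-KO cells, against 30, 42 and 30 WT cells. Summed over the 16 gates there were 56 calls of higher and 0 of lower; at an unadjusted p under 0.05 there were 68 and 1, and DESeq2 called 49 and 0.

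**Figure D1:**
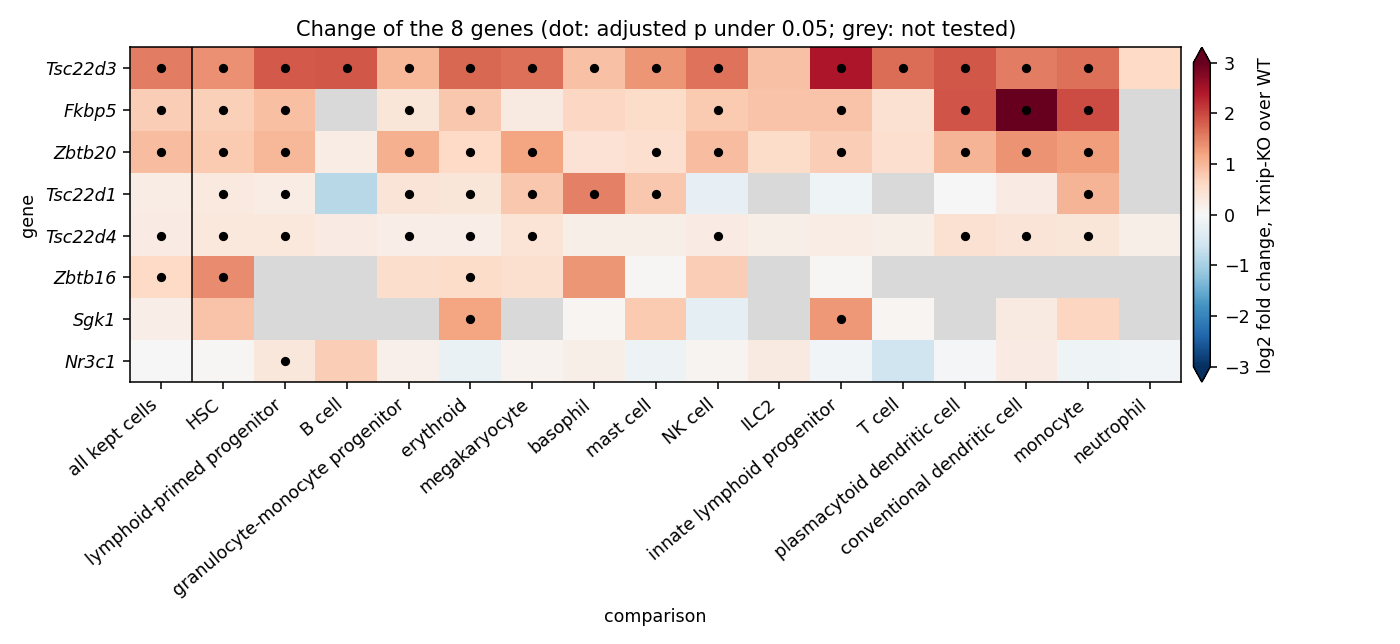
Log2 fold change, Txnip-KO over WT, of the 8 genes (rows) over all kept cells and in 16 marker gates (columns); a dot marks an adjusted p under 0.05 and grey a gene too low to test. Tsc22d3 carries a dot in 14 of 16 gates and Nr3c1 in 1, while the largest value is Fkbp5 in conventional dendritic cells at 3.34.

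Tsc22d3 was the member called in the most gates. Over all kept cells it was measured at 197, 204 and 147 CPM in the Txnip-KO samples, against 48.1, 53.3 and 88.6 CPM in the WT samples. Every Txnip-KO sample was above every WT sample; Txnip-KO sample 3 was the lowest of its group and WT sample 3 the highest of its own. The log2 fold change was 1.53 ± 0.23 (SE), the values resting on 11492, 14278 and 9167 UMIs in the Txnip-KO samples and 3029, 3695 and 5817 UMIs in the WT samples. With each gate drawn to the same number of cells in every sample, it was 1.53. This draw made the gates' shares equal between samples, but not the mix of cells within a gate. The part of that mix in the difference was not tested. The gates' shares differed between the groups: HSC-gated cells made up 11.9%, 11.3% and 8.47% of the Txnip-KO samples, against 6.45%, 5.53% and 4.72% of the WT samples, and basophil-gated cells 7.70%, 2.29% and 1.803%, against 9.55%, 11.2% and 10.1%.

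By gate, the log2 fold change of Tsc22d3 ranged between 0.59 and 2.43 with a median of 1.63, and was positive in 16 of 16 gates. The widest difference was in innate lymphoid progenitors, early lymphoid cells expressing Tcf7 and Rora, at 129, 175 and 89.6 CPM in the Txnip-KO samples, against 27.8, 15.02 and 28.7 CPM in the WT samples. The groups did not overlap there, with a log2 fold change of 2.43 ± 0.28 (SE). This low WT level rested on a small gate of 74, 116 and 122 Txnip-KO cells and 74, 71 and 72 WT cells. The same cluster led in both groups, with 42.3% of Txnip-KO and 66.4% of WT cells of the gate. Lymphoid-primed progenitors express Flt3 and Dntt. Tsc22d3 there was at 206, 211 and 147 CPM in the Txnip-KO samples, against 40.3, 39.2 and 75.9 CPM in the WT samples. The groups did not overlap, and the log2 fold change was 1.85 ± 0.21. HSC-gated cells, gated by genes such as Hlf, Mecom and Procr, had 263, 302 and 217 CPM in the Txnip-KO samples, against 82.8, 87.8 and 136 CPM in the WT samples, a log2 fold change of 1.37 ± 0.16. In NK-gated cells the values were 228, 253 and 185 CPM in the Txnip-KO samples, against 41.7, 64.4 and 110.5 CPM in the WT samples, with a log2 fold change of 1.62 ± 0.22; these cells came mostly from different clusters in the groups, 49.97% of Txnip-KO cells from a cluster led by Gzma and Prf1 and 78.1% of WT cells from a cluster led by Xcl1. Erythroid-gated cells had the same feature, with 85.0% of Txnip-KO and 72.9% of WT cells in different clusters, and a log2 fold change of 1.72 ± 0.21. In mast cells the log2 fold change was 1.34 ± 0.16, and there too the leading clusters differed (37.8% of Txnip-KO cells in a cluster named erythroid, led by Car1 and Mt1, and 41.3% of WT cells in an unnamed one led by Gzmb and Scin), with 28.2% of cells near the gate's limit and the mast cell tryptase gene Tpsb2 without a UMI in any kept cell.

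Granulocyte-monocyte progenitors and basophils showed the smallest called differences. The progenitors, which make the granule proteases Elane and Mpo, had 68.9, 92.1 and 64.0 CPM in the Txnip-KO samples, against 37.2, 31.0 and 45.8 CPM in the WT samples, and the groups did not overlap; the log2 fold change was 1.0 ± 0.14. In basophils Tsc22d3 was at 160.3, 159 and 96.7 CPM in the Txnip-KO samples, against 54.3, 64.4 and 118 CPM in the WT samples. Here the groups overlapped, since Txnip-KO sample 3 lay below WT sample 3. The log2 fold change of 0.87 ± 0.23 was called, but not without Txnip-KO sample 1 (0.71), Txnip-KO sample 2 (0.82), WT sample 1 (0.67) or WT sample 2 (0.72). In ILC2, at 195, 235 and 127 CPM in the Txnip-KO samples, against 58.7, 98.2 and 147 CPM in the WT samples, the groups also overlapped and the log2 fold change of 0.87 ± 0.27 was not called; it was with no low-count filter (0.83) and with clusters in place of gates (0.95). Fkbp5 in ILC2 was also called under both (0.81 and 0.95), and Zbtb20 with clusters (0.56). Neutrophil-gated cells had 244, 203 and 224 CPM in the Txnip-KO samples, against 163, 124 and 168 CPM in the WT samples; the groups did not overlap, and the log2 fold change of 0.59 ± 0.22 was not called.

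The difference between gates was itself tested, in a model of gate and genotype with each sample as a block, against the NK gate as the one with the most cells. The members were chosen with these changes known, so the adjusted p-values place a value in the fit over all genes and test nothing independent. Tsc22d3 differed less between the genotypes in granulocyte-monocyte progenitors than in NK cells, by -0.71 ± 0.17 (SE) on the log2 scale (adjusted p = 0.00712 by edgeR's quasi-likelihood test), where 4.05% of all 11699 genes had a differing effect. The same held in basophils, by -0.84 ± 0.21 (adjusted p = 0.0104, all genes 3.09%). No other gate was called against NK cells. Against the mean of the other gates these 2 were again called, at -0.60 ± 0.13 (all genes 5.68%) and -0.73 ± 0.18 (3.67%), and lymphoid-primed progenitors were called with a larger effect, at 0.42 ± 0.12 (adjusted p = 0.0436, all genes 2.13%).

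**Figure D2:**
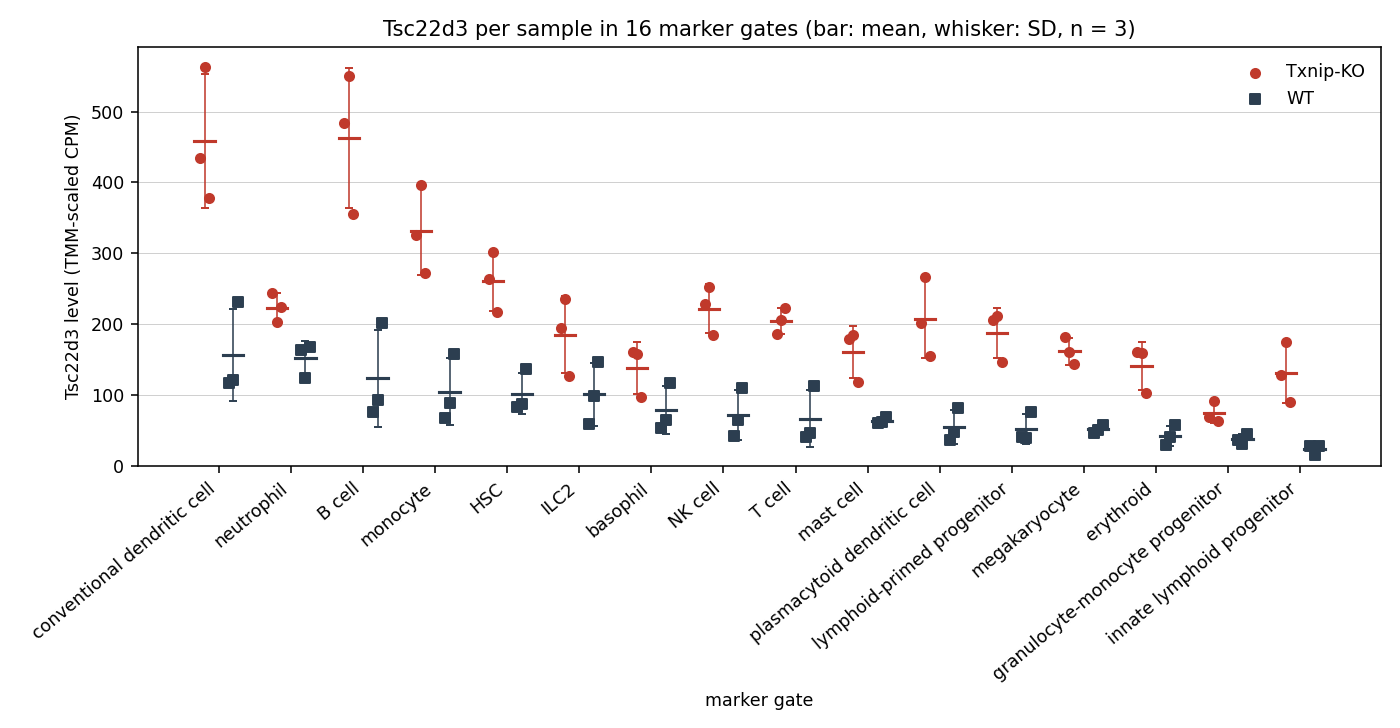
Tsc22d3 level per sample (TMM-scaled CPM, linear axis) in 16 marker gates, Txnip-KO left of WT, ordered by the WT mean; bars are means and whiskers SD over 3 samples. Conventional dendritic and B cells hold the highest Txnip-KO means (458 and 463 CPM), and the groups overlap in basophils and ILC2.

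The level of Tsc22d3 differed widely among the gates before any comparison of genotypes. TMM scaling was done within each gate, so the order across gates sets side by side separately scaled values. In WT samples the highest mean was in conventional dendritic cells, 157 ± 64.8 CPM (SD, n = 3), followed by neutrophils at 152 CPM, B cells at 124, monocytes at 105, HSC at 102 and ILC2 at 101. Below them came basophils at 78.8 CPM, NK cells at 72.2, T cells at 66.8, mast cells at 64.1, plasmacytoid dendritic cells at 55.6, lymphoid-primed progenitors at 51.8 and megakaryocytes at 51.7. Erythroid cells at 42.6 CPM, granulocyte-monocyte progenitors at 38.0 and innate lymphoid progenitors at 23.8 ± 7.66 were lowest. Between neighbours in this order the WT samples overlapped, except that every granulocyte-monocyte progenitor value was above every innate lymphoid progenitor value. In Txnip-KO samples B cells (463 ± 99.0 CPM) and conventional dendritic cells (458 ± 94.8) led, then monocytes at 331, HSC at 261, neutrophils at 223 and NK cells at 222. Plasmacytoid dendritic cells at 208 CPM, T cells at 205, lymphoid-primed progenitors at 188, ILC2 at 185, megakaryocytes at 162, mast cells at 161 and erythroid cells at 141 followed. Basophils at 139, innate lymphoid progenitors at 131 and granulocyte-monocyte progenitors at 75.0 ± 14.96 closed the Txnip-KO order, and all neighbours in it overlapped.

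Among 3079 genes with a mean of at least 50 CPM over the gates, the genes whose WT level over the 16 gates was most like that of Tsc22d3 were Morc3 (Pearson r = 0.782), Samhd1 (0.755), Samd9l (0.750), Chmp3 (0.732) and Sat1 (0.718). Samhd1 encodes a nucleotide hydrolase and Sat1 an enzyme of polyamine breakdown. These correlations are over 16 points that come from the same 3 libraries. Txnip ranked 484 with r = 0.327, Tsc22d4 ranked 260 with r = 0.436, Nr3c1 ranked 825 with r = 0.154, and Zbtb20 had r = -0.29. Of the glucocorticoid targets above the 50 CPM limit, Rgs2 ranked highest, at 35. Fkbp5, Sgk1, Klf9, Per1 and Ddit4 were below that limit and were not ranked.

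Fkbp5 was higher in Txnip-KO over all kept cells and in 9 of the 14 gates where it was tested. Over all kept cells it was measured at 82.3, 66.7 and 49.8 CPM in the Txnip-KO samples, against 37.8, 40.8 and 41.2 CPM in the WT samples. The groups did not overlap, and within the Txnip-KO group sample 3 was the lowest; the log2 fold change was 0.73 ± 0.16 (SE). In conventional dendritic cells, which present antigen to T cells, the values were 199, 167 and 72.4 CPM in the Txnip-KO samples, against 15.7, 12.96 and 14.2 CPM in the WT samples. This was the widest difference of any member in any gate, 3.34 ± 0.32 on the log2 scale, and the Txnip-KO samples also differed among themselves, with sample 3 below the other two. The WT values were low, and the gate held 112, 113 and 166 Txnip-KO cells and 107, 164 and 131 WT cells. Monocytes had 147, 118 and 69.0 CPM in the Txnip-KO samples, against 27.2, 26.3 and 33.1 CPM in the WT samples, a log2 fold change of 1.96 ± 0.23. These 2 gates drew mostly on the same cluster, named monocyte and led by Fn1 and Cd74. It held 88.5% of Txnip-KO and 82.3% of WT cells of the conventional dendritic gate, and 90.4% and 73.8% of the monocyte gate. No cluster was named conventional dendritic cell, so clusters gave no alternative value for that gate. Plasmacytoid dendritic cells, the interferon-producing lineage, had 253, 201 and 91.0 CPM in the Txnip-KO samples, against 39.4, 53.1 and 51.6 CPM in the WT samples, a log2 fold change of 1.88 ± 0.25.

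The log2 fold change of Fkbp5 in the remaining gates with a call was between 0.37 and 0.91: lymphoid-primed progenitors 0.91 ± 0.14, innate lymphoid progenitors 0.86 ± 0.20, erythroid cells 0.82 ± 0.17, NK cells 0.79 ± 0.14, HSC 0.71 ± 0.15 and granulocyte-monocyte progenitors 0.37 ± 0.12. The last of these was not called without Txnip-KO sample 1 (0.20), WT sample 1 (0.33) or WT sample 2 (0.38), and the innate lymphoid progenitor value was not called without Txnip-KO sample 2 (0.71). Megakaryocytes were at 55.3, 46.8 and 34.4 CPM in the Txnip-KO samples, against 35.7, 39.8 and 39.6 CPM in the WT samples. Txnip-KO sample 3 lay below all WT samples there; the log2 fold change of 0.26 ± 0.14 was not called with all samples but was without that sample (0.40). The other gates without a call were ILC2 (0.85), basophils (0.63), mast cells (0.55) and T cells (0.46); basophils and mast cells were called without Txnip-KO sample 3 (0.79 and 0.74). The test between gates called a larger genotype effect than in NK cells for conventional dendritic cells, by 2.54 ± 0.29 (adjusted p = 1.98e-09, all genes 1.09%). It did so for monocytes too, by 1.11 ± 0.23 (adjusted p = 0.00101, all genes 4.95%), and for plasmacytoid dendritic cells, by 1.05 ± 0.20 (adjusted p = 0.000263, all genes 2.58%). Against the mean of the other gates these 3 were again called, at 2.40 ± 0.26 (all genes 0.915%), 0.87 ± 0.20 (3.34%) and 0.81 ± 0.16 (3.80%), and the effect was smaller in granulocyte-monocyte progenitors, by -0.76 ± 0.14, and megakaryocytes, by -0.91 ± 0.16 (all genes 0.530%). Tsc22d3 and Fkbp5 were both called higher in 9 gates. Over 14 gates that share the 6 libraries, their log2 fold changes had a Pearson r of 0.183 and a Spearman rho of 0.349.

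**Figure D3:**
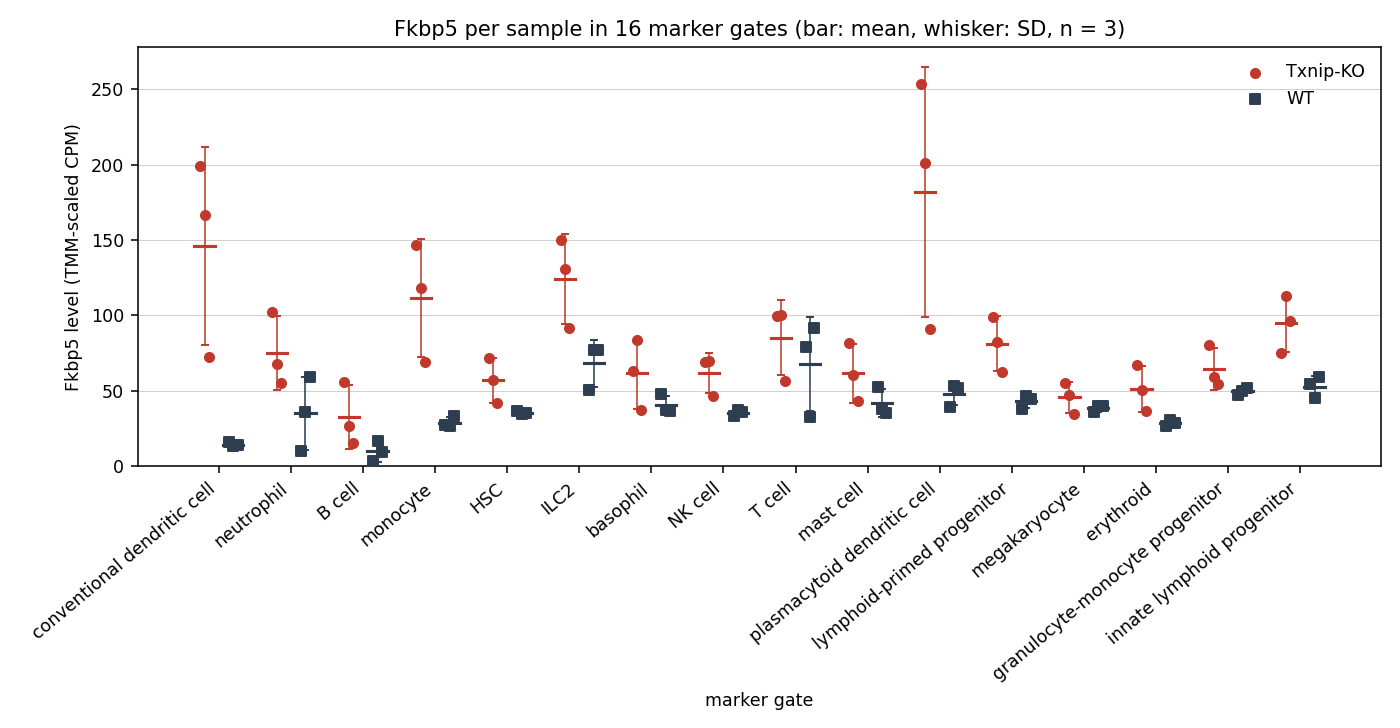
Fkbp5 level per sample (TMM-scaled CPM, linear axis) in 16 marker gates in the order used for Tsc22d3, Txnip-KO left of WT; bars are means and whiskers SD over 3 samples. In plasmacytoid dendritic cells, conventional dendritic cells and monocytes the Txnip-KO samples sit at 69.0 to 253 CPM and the WT samples at no more than 53.1 CPM.

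Zbtb20 and Zbtb16 encode zinc finger repressors with a BTB domain; Zbtb16, also called PLZF, is a glucocorticoid-induced gene in other tissues and the marker of innate lymphoid progenitors. Zbtb20 was measured at 174, 160.1 and 162 CPM in the Txnip-KO samples, against 96.9, 85.0 and 79.3 CPM in the WT samples over all kept cells. The 2 groups were tight and did not overlap, and the log2 fold change was 0.93 ± 0.09 (SE). It was called higher in 11 of 15 gates, between 0.50 in mast cells and 1.34 in conventional dendritic cells, with a median over tested gates of 0.77. NK cells had 277, 255 and 291 CPM in the Txnip-KO samples, against 154, 158 and 126 CPM in the WT samples, a log2 fold change of 0.91 ± 0.10, and megakaryocytes had 158, 143 and 127 CPM in the Txnip-KO samples, against 70.3, 60.3 and 56.3 CPM in the WT samples, a log2 fold change of 1.19 ± 0.11. The 4 gates without a call were B cells, basophils, ILC2 and T cells, at 0.23, 0.44, 0.55 and 0.51. Zbtb16 was at 13.1, 9.67 and 10.3 CPM in the Txnip-KO samples, against 8.49, 7.04 and 6.35 CPM in the WT samples, with groups that did not overlap and a log2 fold change of 0.60 ± 0.15; without WT sample 2 (0.57) or WT sample 3 (0.50) it was not called.

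By gate Zbtb16 was highest in innate lymphoid progenitors, at 263, 342 and 299 CPM in the Txnip-KO samples, against 312, 295 and 269 CPM in the WT samples, where it is among the leading genes of the gate though not used to define it. The groups overlapped fully there, with a log2 fold change of 0.05 ± 0.13. It was called higher only in HSC, at 11.0, 3.95 and 5.19 CPM in the Txnip-KO samples, against 2.12, 3.47 and 2.02 CPM in the WT samples, and in erythroid cells, at 16.3, 9.54 and 11.5 CPM in the Txnip-KO samples, against 8.89, 7.53 and 8.45 CPM in the WT samples. In both gates Txnip-KO sample 1 was well above its group, and the log2 fold changes of 1.41 ± 0.41 and 0.56 ± 0.19 were not called without that sample (0.82 and 0.35). Without WT sample 1 they were not called either (1.27 and 0.61), nor without WT sample 3 (1.30 and 0.58), and the erythroid call was also lost without WT sample 2 (0.49).

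The other TSC22 family members differed less. Tsc22d4 was at 271, 241 and 256 CPM in the Txnip-KO samples, against 211, 218 and 219 CPM in the WT samples. The groups did not overlap, and the log2 fold change of 0.24 ± 0.07 (SE) was not called without Txnip-KO sample 1 (0.18) or any single WT sample (0.22 to 0.25). It was positive in 16 of 16 gates, between 0.17 and 0.45, and called in 9, of which plasmacytoid dendritic cells were highest at 0.45 ± 0.10. Of these 9 calls, 4 held with any sample left out (HSC, lymphoid-primed progenitors, megakaryocytes and plasmacytoid dendritic cells). The erythroid call was lost in all 6 such fits (0.16 to 0.21), those in granulocyte-monocyte progenitors (0.16 to 0.20), NK cells (0.19 to 0.28) and monocytes (0.28 to 0.41) in 5 of 6, and that in conventional dendritic cells in 4 of 6 (0.30 to 0.40); DESeq2 called 4 gates. Tsc22d1 was at 135, 133 and 143 CPM in the Txnip-KO samples, against 105, 119.8 and 127 CPM in the WT samples; the groups did not overlap and the log2 fold change of 0.22 ± 0.08 was not called. It differed by gate, with 8 calls of higher in 13 tested gates. Leaving out 1 sample ended the call in 3 of 6 fits in HSC (0.23 to 0.25) and in erythroid cells (0.35 to 0.38), and in 4 of 6 in lymphoid-primed progenitors (0.17 to 0.25). With cells thinned to 1000 UMIs the calls in HSC, lymphoid-primed progenitors, granulocyte-monocyte progenitors, megakaryocytes and mast cells were lost (0.17 to 0.32). In basophils the values were 38.6, 40.8 and 57.0 CPM in the Txnip-KO samples, against 14.3, 12.6 and 19.0 CPM in the WT samples, a log2 fold change of 1.51 ± 0.24; in monocytes they were 59.5, 62.1 and 73.9 CPM in the Txnip-KO samples, against 28.2, 34.1 and 34.5 CPM in the WT samples, a log2 fold change of 1.01 ± 0.16. Both gates had groups that did not overlap. Megakaryocytes stood at 0.80 ± 0.17, mast cells at 0.80 ± 0.16, and B cells, not called, at -0.82 ± 0.48.

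Against the NK gate, the genotype effect on Tsc22d1 was larger in basophils by 1.71 ± 0.39 (adjusted p = 0.00371), monocytes by 1.21 ± 0.30 (adjusted p = 0.00742) and megakaryocytes by 1.05 ± 0.24 (adjusted p = 0.00810, all genes 1.96%). Against the mean of the other gates only the basophil value was called, at 1.21 ± 0.34. Over 13 gates the log2 fold changes of Tsc22d1 and Tsc22d3 ran opposite to each other, with a Pearson r of -0.61 that is a description over gates sharing the same 6 libraries. Of the listed family member and partners, Tsc22d2 was called higher (0.43 ± 0.07) and so was the kinase gene Wnk1 (0.22 ± 0.08), while Oxsr1, a kinase downstream of WNK1, was called lower (-0.31 ± 0.07); these were 2 higher and 1 lower of 6 tested, beside 21.8% of all genes called higher and 19.3% lower. The Wnk1 call was lost without any 1 of the 6 samples (0.17 to 0.27).

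Sgk1 encodes a kinase induced by glucocorticoids and mineralocorticoids. Over all kept cells it was measured at 8.34, 4.45 and 7.66 CPM in the Txnip-KO samples, against 5.54, 5.66 and 6.48 CPM in the WT samples. The groups overlapped, and the log2 fold change of 0.21 ± 0.22 (SE) was not called with all samples; without Txnip-KO sample 2 it was (0.41). The values rest on 312 to 486 UMIs per sample in Txnip-KO and 349 to 425 in WT. It was tested in 9 gates and called higher in 2. Innate lymphoid progenitors had 44.1, 24.6 and 32.5 CPM in the Txnip-KO samples, against 13.9, 10.0 and 15.9 CPM in the WT samples, with no overlap and a log2 fold change of 1.30 ± 0.34. The erythroid values were 3.34, 1.95 and 3.77 CPM in the Txnip-KO samples, against 1.19, 1.39 and 1.37 CPM in the WT samples, with no overlap and a log2 fold change of 1.17 ± 0.33. The erythroid call was lost without Txnip-KO sample 3 (0.92) or any single WT sample (1.11 to 1.21), and the other without Txnip-KO sample 1 (1.09), WT sample 1 (1.33) or WT sample 2 (1.14). In conventional dendritic cells, the gate with the highest mean of this gene in both groups, it was between 49.7 and 71.0 CPM in the Txnip-KO samples, against 47.0 to 54.6 CPM in the WT samples, and in NK cells at 23.9, 22.5 and 21.9 CPM in the Txnip-KO samples, against 23.4, 27.8 and 32.7 CPM in the WT samples; neither was called. Relative to NK cells, where the value was negative, the effect was larger in erythroid cells by 1.47 ± 0.37 (adjusted p = 0.00785, all genes 4.95%) and in innate lymphoid progenitors by 1.61 ± 0.41 (adjusted p = 0.0236, all genes 1.23%). Against the mean of the other gates neither was called, at 0.80 ± 0.38 and 0.95 ± 0.43. Of 7 genes around SGK1, 2 were called higher over all kept cells, beside 21.8% of all genes, and none lower: Rictor, a subunit of the mTOR complex that activates SGK1, at 0.62 ± 0.09, and Ndrg1, a substrate of SGK1, at 0.71 ± 0.10. Over the 16 gates these genes had 25 calls of higher and 2 of lower. In single gates 0.288% to 22.1% of all genes were called higher and 0.0575% to 23.4% lower. Of the FoxO genes on the list, Foxo1 was called higher in 5 of 15 gates and Foxo3 lower in 2 of 15. Neither was called over all kept cells (-0.04 for both), and their part in the Tsc22d3 difference was not tested.

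Nr3c1, the receptor gene, was not called over all kept cells. It was measured at 75.7, 72.7 and 78.9 CPM in the Txnip-KO samples, against 77.6, 74.0 and 75.3 CPM in the WT samples. The samples of the groups interleaved, and the log2 fold change was 0.00 ± 0.06 (SE). It was tested in 16 gates and called in 1, lymphoid-primed progenitors, at 86.4, 87.7 and 95.6 CPM in the Txnip-KO samples, against 73.3, 73.5 and 68.2 CPM in the WT samples. Those groups did not overlap, and the log2 fold change was 0.33 ± 0.08. T cells were at 114, 132 and 128 CPM in the Txnip-KO samples, against 248, 125 and 202 CPM in the WT samples, a log2 fold change of -0.61 ± 0.20 that was not called with all samples but was without WT sample 2 (-0.86) or with a stricter gate (-0.74). B cells were at 0.74 ± 0.26, also not called.

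Several chaperones that hold the receptor were lower in Txnip-KO. Of 14 tested genes on a list of receptor chaperones and cofactors, 5 were called lower, beside 19.3% of all genes, and 2 higher over all kept cells, with a median log2 fold change of -0.025 beside 0.037 for all genes. Hsp90aa1, the inducible HSP90, fell by 0.62 on the log2 scale, Stip1, which links HSP70 to HSP90, by 0.62, Ptges3, the p23 co-chaperone, by 0.56, Fkbp4, which competes with FKBP5 on the receptor, by 0.43, and Bag1 by 0.36. Stip1 was at 56.7, 68.3 and 68.7 CPM in the Txnip-KO samples, against 96.9, 104 and 96.9 CPM in the WT samples, with no overlap, and Fkbp4 at 103, 129 and 141 CPM in the Txnip-KO samples, against 156, 179 and 166 CPM in the WT samples, again with no overlap. The Fkbp4 call was lost without WT sample 2 (-0.38) or WT sample 3 (-0.44). Hsp90aa1 was called lower in 13 of 16 gates, Stip1 in 12 of 15, Ptges3 in 11 of 15, Bag1 in 8 of 16 and Fkbp4 in 7 of 15, and none of these 5 was called higher in any gate. These 5 are named because they were called lower over all kept cells. Summed over the 16 gates the whole list had 57 calls of lower and 20 of higher. In single gates 0.0575% to 23.4% of all genes were called lower and 0.288% to 22.1% higher. The coactivator gene Ncoa2 (0.51 ± 0.09) was called higher over all kept cells and in 7 gates. Hsp90ab1, the constitutive HSP90, was called lower in 5 gates and higher in 1. HSP90 and its co-chaperones serve many client proteins besides the receptor.

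Whether Tsc22d3 moved together with other glucocorticoid targets was read from a list of 33 genes that leaves out the 8 members and Txnip. Of 29 tested over all kept cells, 12 were called higher, beside 21.8% of all genes, and 0 lower, beside 19.3%, with a median log2 fold change of 0.55 beside 0.037 for all genes; at an unadjusted p under 0.05 there were 15 and 0, and DESeq2 called 13 and 1. The 12 were Sult1a1, Mt2, Ddit4, Per1, Klf9, Hif3a, Glul, Errfi1, Mt1, Dusp1, Tgfbr3 and Klf13. The genes were listed from general knowledge with earlier results of these data known, so the count is a description.

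Ddit4, which encodes an inhibitor of mTOR complex signalling, was the target called in the most gates. It was at 56.2, 49.3 and 31.8 CPM in the Txnip-KO samples, against 10.8, 13.4 and 20.6 CPM in the WT samples over all kept cells, with no overlap, and the log2 fold change was 1.61 ± 0.27 (SE; adjusted p = 0.00322 by edgeR). It was called higher in 14 of 15 gates, up to 3.02 ± 0.31 in monocytes, where it was at 167, 133 and 71.4 CPM in the Txnip-KO samples, against 8.57, 15.7 and 21.3 CPM in the WT samples. In those monocytes each Txnip-KO sample was far above every WT sample. Ddit4 is also a target of stress pathways that do not involve the receptor. Klf9, a Krüppel-like factor and direct target of the receptor, was at 38.2, 32.5 and 23.4 CPM in the Txnip-KO samples, against 13.3, 10.4 and 9.67 CPM in the WT samples, with no overlap and a log2 fold change of 1.49 ± 0.19 (adjusted p = 0.00149 by edgeR); it was called in 12 of 13 gates. Per1, a clock gene with a known glucocorticoid response element, was at 16.7, 22.5 and 12.3 CPM in the Txnip-KO samples, against 4.81, 5.33 and 7.62 CPM in the WT samples, with no overlap and a log2 fold change of 1.54 ± 0.24 (adjusted p = 0.00274 by edgeR). Per1 was called in 9 of 11 gates; the exceptions were NK cells at 0.34 ± 0.25 and basophils at 0.45 ± 0.34.

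Glul, the glutamine synthetase gene, was at 146, 124 and 110.2 CPM in the Txnip-KO samples, against 53.5, 55.2 and 61.0 CPM in the WT samples, with no overlap, a log2 fold change of 1.16 ± 0.11 and a call in 12 of 15 gates. Klf13 was called in 10 of 16 gates at smaller sizes, up to 1.02 in plasmacytoid dendritic cells. Cxcr4, the receptor that retains cells in marrow, was called higher in 12 of 16 gates but not over all kept cells, where it was at 93.8, 73.1 and 58.5 CPM in the Txnip-KO samples, against 46.6, 55.1 and 67.9 CPM in the WT samples and the groups overlapped. The sulfotransferase gene Sult1a1 was called in all 5 gates in which it was tested, and in monocytes was at 148, 88.7 and 110.0 CPM in the Txnip-KO samples, against 7.56, 6.91 and 10.4 CPM in the WT samples, with no overlap and a log2 fold change of 3.83 ± 0.23. Il7r, the interleukin-7 receptor chain, was called higher in 5 lymphoid gates of 10 tested: 1.795 in T cells, 1.56 in NK cells, 1.25 in B cells, 0.84 in innate lymphoid progenitors and 0.74 in ILC2. Of the metallothionein genes, Mt2 was called over all kept cells at 2.28 ± 0.26 and in the 1 gate in which it was tested, and Mt1 at 0.67 ± 0.11.

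**Figure D4:**
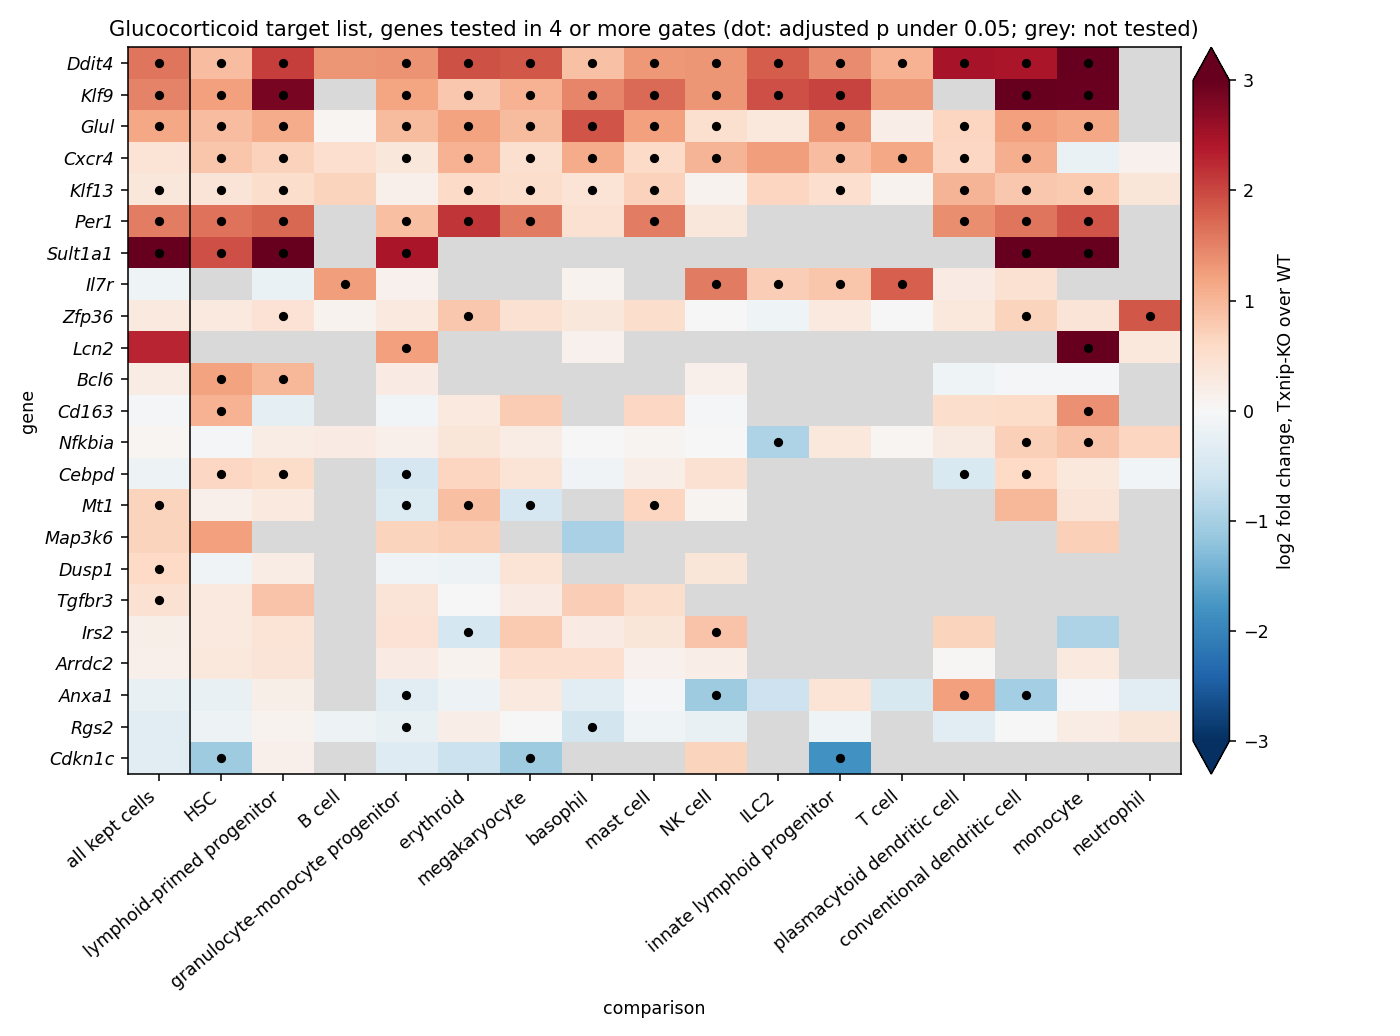
Log2 fold change, Txnip-KO over WT, of glucocorticoid target genes tested in 4 or more gates (rows) over all kept cells and in 16 marker gates (columns); a dot marks an adjusted p under 0.05 and grey a gene too low to test. Rows are ordered by calls higher minus calls lower; the upper rows are red nearly throughout, while Anxa1, Rgs2 and Cdkn1c at the foot hold mostly blue cells.

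Other targets were called lower in 1 gate or more. Summed over the 16 gates the list had 259 tests, 100 called higher and 14 lower; in single gates the share of all genes called higher was 0.288% to 22.1% and that called lower 0.0575% to 23.4%. Cdkn1c, the cell cycle inhibitor p57, was called lower in HSC (-1.06 ± 0.14), megakaryocytes (-1.06 ± 0.32) and innate lymphoid progenitors (-1.83 ± 0.54). Anxa1, which encodes the anti-inflammatory protein annexin A1, was called lower in NK cells (-1.06 ± 0.10), conventional dendritic cells (-1.01 ± 0.12) and granulocyte-monocyte progenitors (-0.34 ± 0.09) and higher in plasmacytoid dendritic cells (1.23 ± 0.35). Rgs2 was called lower in basophils (-0.54 ± 0.13) and granulocyte-monocyte progenitors (-0.23 ± 0.09). Mt1 was called lower in megakaryocytes (-0.50) and granulocyte-monocyte progenitors (-0.40) and higher in erythroid (0.91) and mast cells (0.65); Mt1 is among the top 10 genes of the erythroid cluster that led in Txnip-KO cells of these last 2 gates and did not lead in WT cells. Cebpd was called lower in 2 gates and higher in 3, Irs2 lower in 1 and higher in 1, and Nfkbia lower in 1 and higher in 2. Over the gates where both were tested, the Pearson r between the log2 fold changes of a target and of Tsc22d3 was 0.55 for Per1, 0.46 for Cebpd, 0.44 for Anxa1, 0.26 for Ddit4, 0.19 for Klf9, -0.12 for Glul and -0.40 for Cdkn1c, over 7 to 15 gates that share the 6 libraries.

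Of the all-cell calls, 3 had no call within any gate. Dusp1 was called over all kept cells (0.60 ± 0.20) but in 0 of 6 gates, Tgfbr3 (0.46 ± 0.13) in 0 of 7 and Errfi1 (1.0 ± 0.24) in 0 of 2. With each gate drawn to the same number of cells in every sample, these 3 stood at 0.17, 0.13 and 0.38 and were not called. Tgfbr3 was also not called without Txnip-KO sample 2 (0.32) or WT sample 3 (0.36), nor Errfi1 without WT sample 3 (0.93). Without Txnip-KO sample 1 or 3, or any single WT sample, Dusp1 was also not called (0.33 to 0.63), and Klf13 was not called without Txnip-KO sample 1 or any WT sample (0.19 to 0.38). Lcn2, a gene of neutrophil granules, was at 219, 12.5 and 58.9 CPM in the Txnip-KO samples, against 18.8, 21.4 and 19.5 CPM in the WT samples; neutrophil-gated cells numbered 275, 21 and 122 in the Txnip-KO samples and 30, 42 and 30 in the WT samples, and their part in that value was not tested. Among 11 tested immediate early genes, which rise with handling of cells, Jun (1.19 ± 0.33) and Ier3 (0.52 ± 0.12) were called higher, beside 21.8% of all genes, and none lower. Summed over the 16 gates the immediate early list had 22 calls of higher and 2 of lower, with 2 to 9 genes tested per gate. In single gates the share of all genes called higher was 0.288% to 22.1% and that called lower 0.0575% to 23.4%. Jun was higher in 9 of 14 gates, Jund in 6 of 16 and Junb in 4 of 15. The calls included 4 higher and 1 lower of 7 tested in monocytes (all genes 7.26% higher and 8.65% lower). They included 3 higher of 7 in conventional dendritic cells (all genes 7.55% higher) and 3 of 4 in innate lymphoid progenitors (4.24%). None was called of 9 tested in HSC (12.5%), 8 in erythroid cells (14.8%) or 3 in T cells (2.68%). Nor was any called of 4 tested in ILC2 (0.742%) or 2 in neutrophils (0.288%). Called higher were 1 of 9 in lymphoid-primed progenitors (22.1%), 1 of 4 in plasmacytoid dendritic cells (14.6%) and 2 of 4 in B cells (1.37%). So were 2 of 6 in megakaryocytes (13.9%) and, with 1 lower, 2 of 8 in NK cells (13.6%). The part of handling in these differences was not tested. Over all kept cells Jun was at 28.8, 19.9 and 56.3 CPM in the Txnip-KO samples, against 17.4, 13.2 and 15.3 CPM in the WT samples, highest in Txnip-KO sample 3, which was the lowest Txnip-KO sample for Tsc22d3; without WT sample 2 (1.10) or WT sample 3 (1.19) the call was lost.

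Within each genotype the samples also ranked alike for several of these genes. Txnip-KO sample 3 was the lowest of its group for Tsc22d3 in 14 of 16 gates, for Fkbp5 in 13 of 14 tested gates, for Ddit4 in 15 of 15, for Klf9 in 10 of 13 and for Per1 in 9 of 11. WT sample 3 was the highest of its group for Tsc22d3 in 16 of 16 gates, for Ddit4 in 13 of 15, for Per1 in 11 of 11 and for Glul in 12 of 15, but for Fkbp5 in only 4 of 14 and for Klf9 in only 3 of 13. Zbtb20 had Txnip-KO sample 3 lowest in 8 of 15 gates, and Tsc22d4 in 3 of 16. The gates of a sample come from 1 library, so these counts repeat the order of the same 6 libraries. Txnip-KO sample 3 also had the fewest UMIs per cell, a median of 6932, and the lowest Txnip level; the part of either in the order was not tested.

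**Figure D5:**
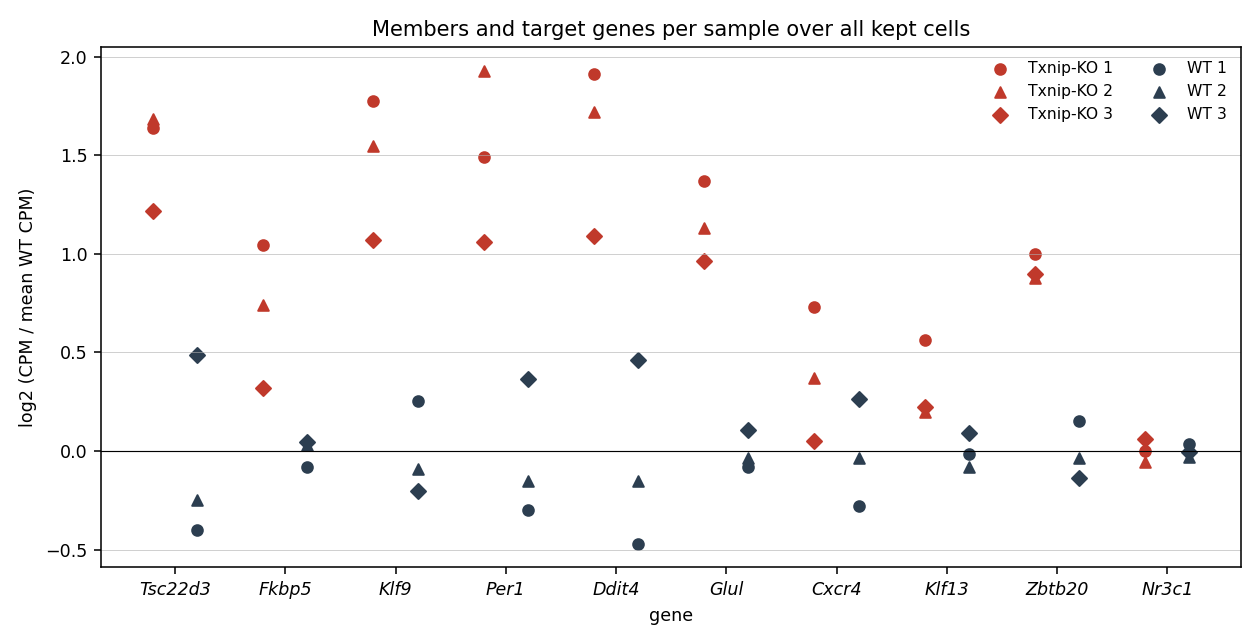
Level of 4 members and 6 target genes in each sample over all kept cells, as log2 of CPM over the mean WT CPM, Txnip-KO left of WT with a marker shape per sample. Txnip-KO sample 3 (red diamond) lies below the other two Txnip-KO samples for Tsc22d3, Fkbp5, Klf9, Per1, Ddit4, Glul and Cxcr4, and WT sample 3 (dark diamond) lies highest of WT for Tsc22d3, Fkbp5, Per1, Ddit4, Glul, Cxcr4 and Klf13.

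The share of cells with at least 1 Tsc22d3 UMI gave the same order when depth was made equal. After each kept cell was thinned to 1000 UMIs, with no cell left out, a Tsc22d3 UMI was seen in 20.7%, 21.3% and 16.8% of Txnip-KO cells, against 5.19%, 5.80% and 9.83% of WT cells. The groups did not overlap, and within each group the order of the samples was that of the CPM. Without thinning the shares were 71.1%, 73.4% and 59.9% of Txnip-KO cells, against 33.7%, 36.0% and 48.2% of WT cells. By gate the WT mean of the thinned share was lowest in innate lymphoid progenitors, where the shares were 16.2%, 18.1% and 12.3% of Txnip-KO cells, against 2.70%, 1.41% and 6.94% of WT cells; in conventional dendritic cells they were 31.2%, 44.2% and 34.9% of Txnip-KO cells, against 10.3%, 11.0% and 19.8% of WT cells. Free RNA in droplets can give such UMIs, and with no gate known to lack Tsc22d3 its part was not tested. For Fkbp5 the thinned shares over all kept cells were 9.13%, 7.28% and 4.92% of Txnip-KO cells, against 3.68%, 3.83% and 3.53% of WT cells, without overlap.

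Cells that held a Tsc22d3 UMI after thinning were compared with all cells of their own gate and sample for the UMIs of other genes. Set against the UMIs expected from all cells of the same gate and sample, Fkbp5 had a ratio of 1.09 (95% interval 0.895 to 1.31) in Txnip-KO sample 1, 1.07 (95% interval 0.883 to 1.28) in sample 2 and 1.05 (95% interval 0.788 to 1.36) in sample 3; the intervals are exact Poisson ones for counting error only, and all include 1. Klf9 had 1.46 (95% interval 1.13 to 1.86), 1.05 (95% interval 0.782 to 1.38) and 0.925 (95% interval 0.573 to 1.41), above 1 in sample 1 only. Ddit4 had 1.09 (95% interval 0.874 to 1.35), 1.10 (95% interval 0.907 to 1.33) and 1.23 (95% interval 0.928 to 1.596). Tsc22d1 reached 1.99 (95% interval 1.56 to 2.51) in WT sample 2, with 0.901 (95% interval 0.551 to 1.39) in WT sample 1 and 0.865 (95% interval 0.633 to 1.15) in WT sample 3. Its interval also lay above 1 in Txnip-KO sample 2, at 1.21 (95% interval 1.06 to 1.38). Per1 in WT sample 3, at 2.10 (95% interval 1.05 to 3.76), and Glul in WT sample 1, at 1.66 (95% interval 1.06 to 2.46), were the other target values with an interval above 1. The Per1 value rested on 11 UMIs, and WT samples 1 and 2 had 0 Per1 UMIs where 2.04 and 2.13 were expected. Glul was at 1.15 (95% interval 0.703 to 1.78) in WT sample 2 and 0.787 (95% interval 0.510 to 1.16) in WT sample 3. Txnip itself had 1.07 (95% interval 0.905 to 1.25), 1.25 (95% interval 1.08 to 1.45) and 1.16 (95% interval 1.04 to 1.29) in the WT samples. With 1000 UMIs per cell these counts are sparse, and the ratio for the housekeeping gene Actb lay between 0.956 and 1.06. Its interval also left out 1 in 2 samples, WT sample 1 (1.06 (95% interval 1.02 to 1.11)) and WT sample 2 (0.956 (95% interval 0.922 to 0.990)), so an interval beyond 1 here does not set a gene apart.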

How the data were processed

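The deposited matrices are raw counts of UMIs, 1 row for each gene and cell with a value; per the labels' protocols the libraries were Chromium 3′ v3.1 (10x Genomics), and the submitters' processing notes name CASAVA 1.8, Cell Ranger 6.1.1 and Seurat 2.3.4. The labels name no genome build for the counts. Of the gene IDs, 31107 matched GENCODE M21 (GRCm38), from which gene positions come; promoter sequences are from RefSeq.

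Cells with at least 500 genes, at least 1000 UMIs and at most 10% mitochondrial UMIs were kept (scanpy 1.11.5). Doublets were scored with Scrublet and removed at 0.8% per 1000 cells, 6.50% of the passing cells; its own threshold marked 1394. A cell entered a gate with 3 or more markers of that type detected, a score of at least 0.3 and a lead of 0.1 over other types. These limits were set after the data were seen, and an endothelial list was left out because its gate took in progenitors. Leiden clusters (31, of which 24 were named) served as an alternative.

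UMIs were summed per sample and tested with edgeR 4.0.16 (R 4.3.3; TMM, filterByExpr, quasi-likelihood, Benjamini-Hochberg, threshold 0.05); DESeq2 1.42.0, no filter, a replicate block, other cell filters, thinning and leaving out each sample were alternatives. The fit was checked on counts with known changes. The deposited UMIs summed to 61368478, 80688688 and 70629624 in the Txnip-KO samples and 72152212, 80876483 and 79840940 in the WT samples. The 8 genes and all lists were chosen with earlier results of these data known. Named list genes are those called over all kept cells or in many gates, or called against their list's majority. One list gene that is counted is not reported here by name.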

Additional observations from a re-analysis of the deposited data

Results flagged for a closer look

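The genotype effect, Txnip-KO over WT, differed between a gate and the NK gate in a test of the difference itself (log2 scale, edgeR's quasi-likelihood test with Benjamini-Hochberg adjustment) for 10 pairs of gene and gate. For Fkbp5 the effect was larger by 2.54 in conventional dendritic cells, 1.11 in monocytes and 1.05 in plasmacytoid dendritic cells, and the 3 Txnip-KO samples were above the 3 WT samples in each of these gates. For Tsc22d1 it was larger by 1.71 in basophils, 1.21 in monocytes and 1.05 in megakaryocytes. For Sgk1 it was larger by 1.47 in erythroid cells and 1.61 in innate lymphoid progenitors, beside a value in NK cells of -0.29. For Tsc22d3 it differed by -0.84 in basophils and -0.71 in granulocyte-monocyte progenitors, where Txnip-KO was still higher than WT by 0.87 and 1.0. Against the mean of the other gates, Sgk1 was called in neither of its gates and Tsc22d1 in neither monocytes nor megakaryocytes. The NK gate drew on different clusters in the groups, 49.97% of Txnip-KO cells from one and 78.1% of WT cells from another, and its part in these differences was not tested.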

How the results depend on the processing

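The log2 fold change of Tsc22d3 over all kept cells was 1.36 to 1.84 with 1 sample left out (lowest without WT sample 1, highest without WT sample 3) and was called in every alternative run. The number of members higher over all kept cells was 5, was 3 with cells thinned to 1000 UMIs, and was 3 to 6 with 1 sample left out (3 without WT sample 2 or WT sample 3). Among called values, 1015 alternative values kept direction and side of the threshold and 149 lost the call; among values not called, 50 changed sign and 30 became called.

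Deviations of same-numbered samples correlated at 0.104, 0.0994 and 0.0640 over all kept cells. By gate these correlations ran from -0.162 in ILC2 to 0.407 in neutrophils. Differently numbered samples were not set beside them, so whether the numbers pair the samples was not tested. With the replicate block Tsc22d3 stood at 1.57 and Tsc22d1 was called (0.22). Target genes lower over all kept cells numbered 0, and were 1 with DESeq2 and 1 with the replicate block. They were 2 with each gate at the same number of cells in every sample, and 0 to 2 with 1 sample left out. Over the gates, 100 calls of higher became 40 with thinning, and 14 calls of lower became 9 with DESeq2, 3 with thinning and 8 to 14 with 1 sample left out; thinning leaves fewer UMIs.

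Sign changes were among values not called. Over all kept cells Sgk1 stood at -0.078 with thinning, and Nr3c1 at -0.024 with DESeq2, -0.043 with no filter, -0.030 with doublets kept, -0.013 with the stricter cell filter and -0.020 with thinning. Sgk1 in basophils stood at -0.0021 with no filter, -0.29 with thinning, -0.022 with the stricter gate and -0.0067 with clusters, and in T cells at -0.066 with clusters. Zbtb16 stood at -0.20 in mast cells with the stricter cell filter and -0.50 in innate lymphoid progenitors with thinning. Tsc22d1 in innate lymphoid progenitors stood at 0.23 with doublets kept, 0.072 with the stricter gate and 0.14 with clusters, and in plasmacytoid dendritic cells at 0.12 with the stricter cell filter and with thinning. Nr3c1 stood at 0.19 in innate lymphoid progenitors with thinning, 0.032 in plasmacytoid dendritic cells with the stricter cell filter, and in neutrophils at 0.076 with the replicate block and 0.11 with doublets kept.

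With 1 sample left out, Nr3c1 spanned -0.032 to 0.014 over all kept cells, -0.013 to 0.15 in HSC, -0.13 to 0.30 in basophils, -0.20 to 0.036 in innate lymphoid progenitors, -0.11 to 0.033 in plasmacytoid dendritic cells, -0.27 to 0.011 in monocytes and -0.46 to 0.16 in neutrophils. Zbtb20 in B cells spanned -0.040 to 0.54, Sgk1 -0.14 to 0.47 in basophils and -0.073 to 0.14 in T cells, and Zbtb16 -0.088 to 0.19 in mast cells and -0.054 to 0.13 in innate lymphoid progenitors. Tsc22d1 spanned -0.37 to 0.11 in innate lymphoid progenitors and -0.13 to 0.057 in plasmacytoid dendritic cells. The causes of these shifts were not tested.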
